A study of Mus musculus with 2 samples.

Results

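Genes of presynaptic vesicle release were followed across the neuron subtypes and glia of the mouse amygdala. The set comprises 35 genes, picked by symbol and matched to the count matrices by Ensembl identifier, and all 35 were found among the 32285 identifiers of each matrix. They are synaptotagmins and Doc2b (Syt1, Syt2, Syt4, Syt5, Syt6, Syt7, Syt9, Syt10, Syt17 and Doc2b), SNARE proteins and their regulators (Snap25, Stx1a, Vamp1, Vamp2, Stxbp5l, Cplx1, Cplx2 and Nsf), active zone and priming proteins (Unc13a, Unc13b, Unc13c, Rims1, Rims2, Bsn, Pclo and Erc2) and proteins of the vesicle and its recycling (Syn1, Syn2, Syn3, Sv2a, Sv2b, Sv2c, Syp, Rab3a and Dnm1). The synaptotagmins and Doc2b are grouped below as calcium sensors, although Syt17 does not need calcium. Amygdala nuclei came from Sema6d-/- mice (KO), which lack Sema6d, a transmembrane semaphorin that binds plexins, and from wild-type mice (WT). Both groups carry the strain label C57BL6/J and an age of 6 to 8 weeks, with no treatment named, and each is 1 droplet library made with the 10x 5' kit (version 2), which counts RNA molecules (UMIs) near their 5' ends. The sources used here name neither the animals per library, nor their sex, nor the deleted part of Sema6d. Since each genotype is a single library, no test between them was possible, and every interval below covers counting error only, not the spread between animals or preparations.

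At a presynaptic terminal, vesicles filled with transmitter dock at the active zone, where Rims, Bassoon, Piccolo and Erc2 form a scaffold and Munc13 proteins (Unc13 genes) prime them. Fusion follows when the vesicle SNARE (Vamp1 or Vamp2) zips together with Stx1a and Snap25, held by complexins and triggered by calcium-binding synaptotagmins. Nsf then takes the SNARE complex apart, dynamin 1 pinches off recycled membrane, and synapsins keep a reserve of vesicles clustered.

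After filtering, the KO library held 7857 nuclei with 55781010 UMIs (median 6387 per nucleus) and the WT library 10272 nuclei with 77985163 UMIs (median 7165), and 128 barcodes occurred in both. Nuclei were placed in classes by the UMIs of marker genes, none of them among the 35 genes, and 14.0% of KO and 14.8% of WT nuclei met no gate. The gates held 1058 KO and 1332 WT excitatory neurons, 3541 and 5888 inhibitory neurons, 607 and 785 astrocytes, 1139 and 523 oligodendrocytes, 114 and 89 oligodendrocyte precursors, and 191 and 82 microglia. Within neurons 13 subtypes were gated, 5 excitatory and 8 inhibitory, named for their gating genes or, for D1 and D2 medium spiny and cholinergic nuclei, for the cells those genes mark. Markers that took no part in the gates were also checked: Adora2a stood at 326 CPM in KO and 277 CPM in WT in D2 medium spiny and at 12.2 CPM in KO and 11.96 CPM in WT in D1 medium spiny nuclei, and Slc18a3, the vesicular acetylcholine transporter, at 58.2 CPM in KO and 40.9 CPM in WT in cholinergic nuclei. These values bear on the D1, D2 and cholinergic gates only. Levels are a gene's UMIs per 1000000 UMIs of the class (CPM), with exact 95% Poisson intervals, and are compared within a gene, never between genes.

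Sema6d RNA was not lower in the library labelled KO. It stood at 687 CPM in KO and 579 CPM in WT in excitatory neurons and at 711 CPM in KO and 658 CPM in WT in inhibitory neurons. Since the deleted part is not given, these tags do not check the labels, and KO and WT below mean the libraries so labelled. The libraries also differed in quality: the median share of mitochondrial UMIs was 0.199% in KO and 0.565% in WT excitatory neurons, and 0.315% and 0.684% in inhibitory neurons.

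**Figure D1:**
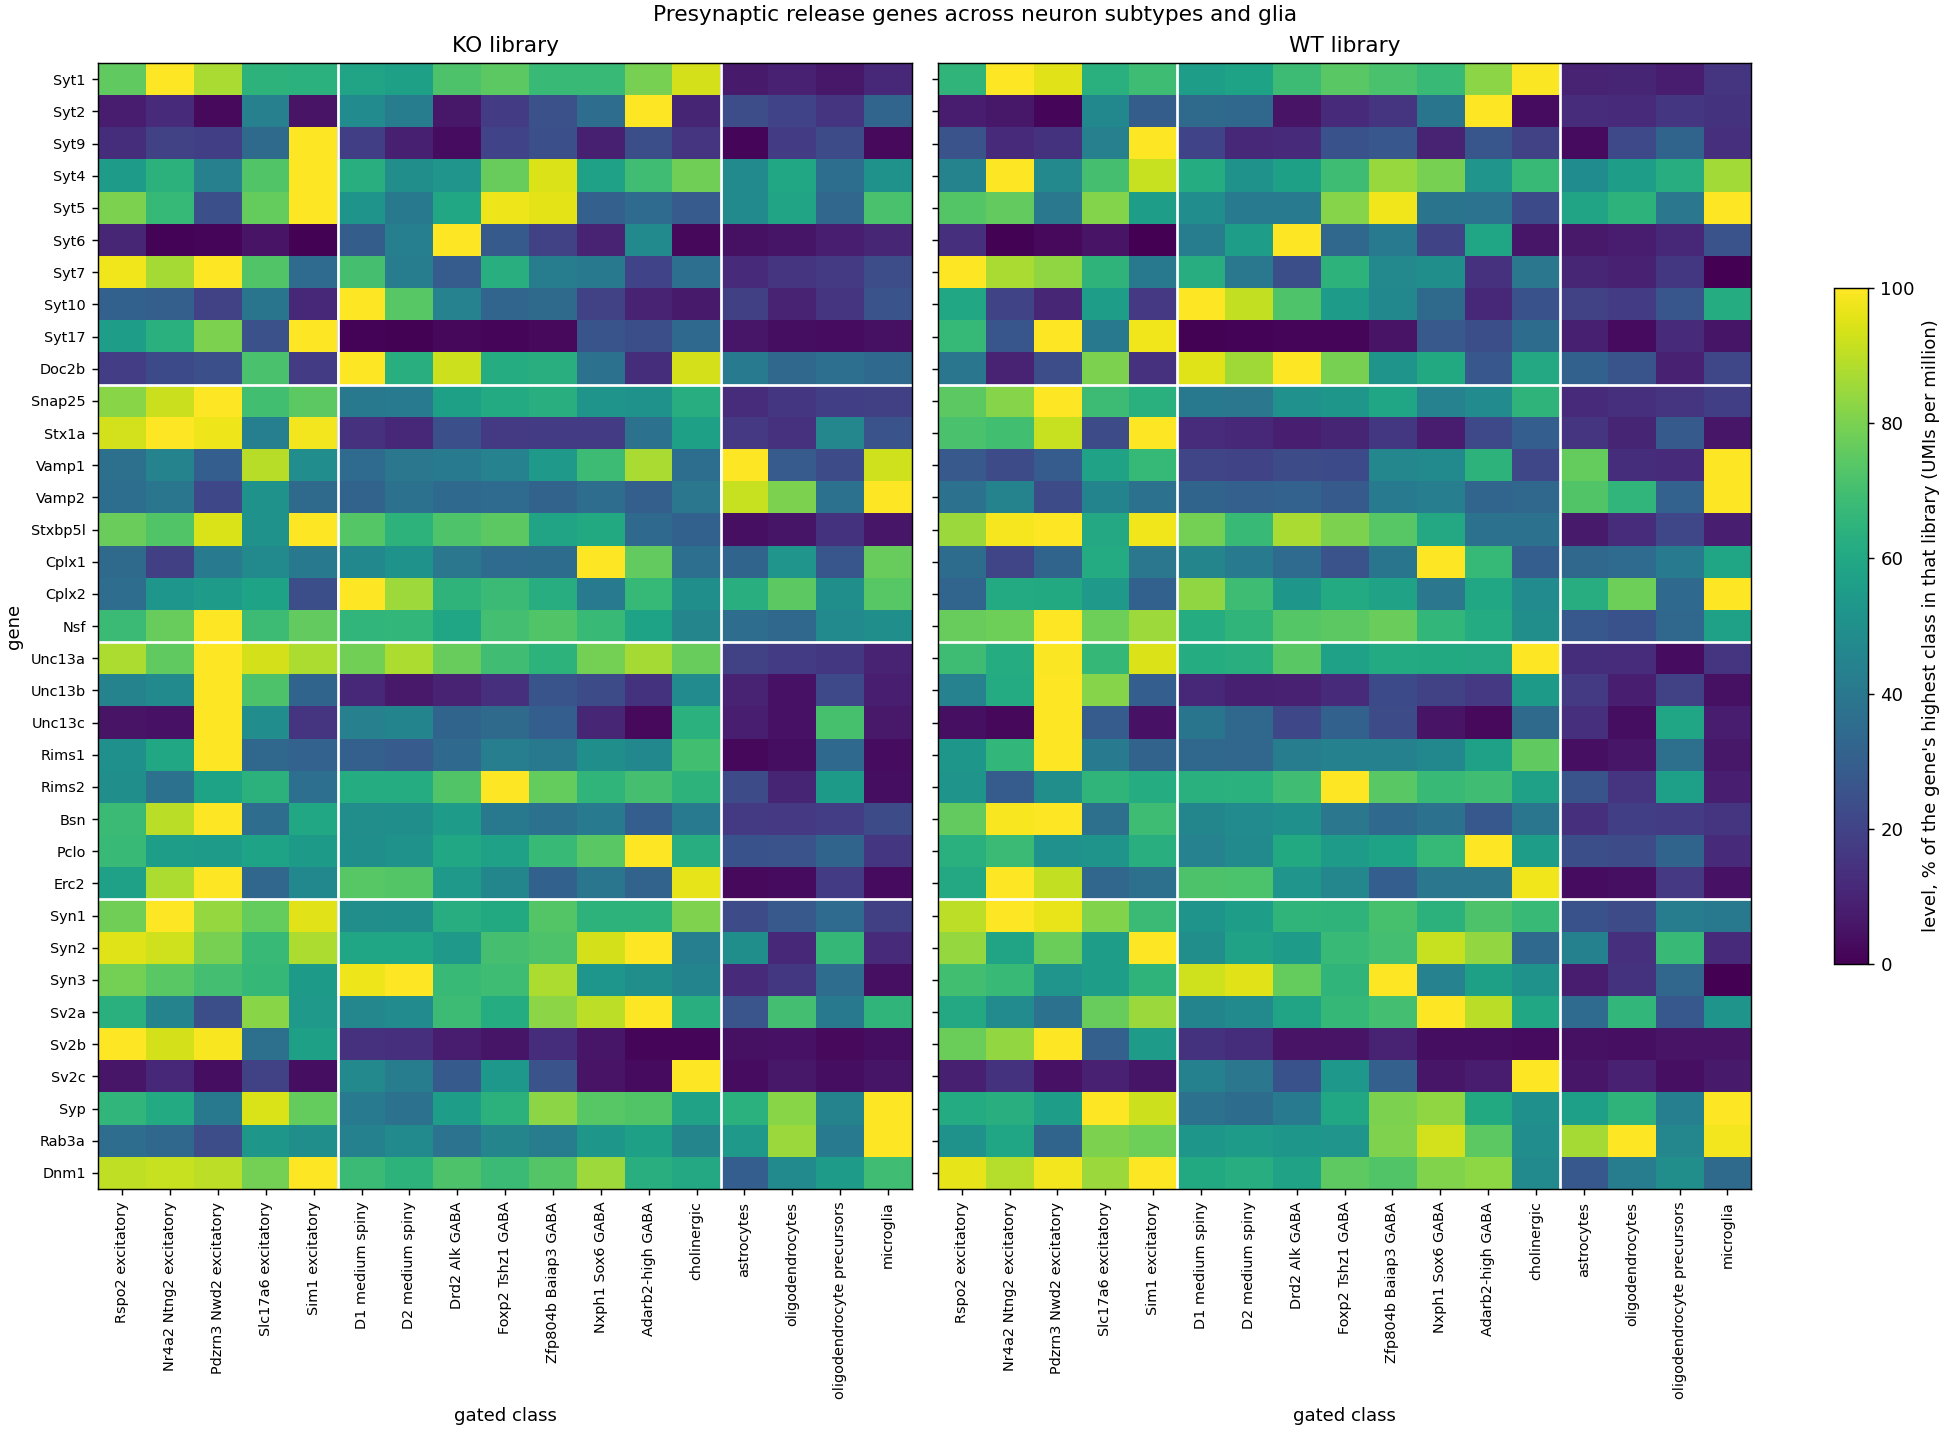
Level of each of the 35 genes (rows, grouped from top to bottom as calcium sensors, SNARE machinery, active zone and vesicle proteins) in 13 neuron subtypes and 4 glial classes (columns), KO left and WT right, as % of the gene's own highest class in that library. White lines part excitatory subtypes, inhibitory subtypes and glia; Syt2, Syt6, Syt17, Sv2b, Sv2c and Unc13c are bright in few columns, while Vamp2, Rab3a and Syp are as bright in glia as in neurons.

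Most of these genes were neuronal in both libraries. Of 35 genes, 26 were (with glia summed over astrocytes, oligodendrocytes, precursors and microglia) at least 1.5-fold higher in neurons than in glia in KO and 26 in WT, where 25.5% and 25.8% of all genes with at least 100 UMIs were so. At least 1.5-fold lower were 2 genes in each library, against 30.4% and 28.5% of all genes. The median log2 ratio of neurons over glia was 1.36 in KO and 1.28 in WT, and that of all genes with at least 20 UMIs -0.11 and -0.14. Erc2, an active zone scaffold, had the widest gap, 15.1-fold in KO and 12.8-fold in WT. Next came Stxbp5l, or tomosyn 2, an inhibitor of SNARE assembly (11.9-fold in KO and 7.45-fold in WT), and Syt1, the fast calcium sensor of forebrain synapses (8.12-fold and 6.81-fold). Rims1 stood at 8.04-fold and 6.20-fold, Sv2b at 6.95-fold and 5.54-fold, and Syn3 at 5.26-fold and 6.46-fold. Per nucleus, Syt1 gave 48.02 UMIs in KO and 41.5 in WT excitatory neurons, and 1.06 and 1.24 in astrocytes.

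Flanks upstream of the genes were searched on both strands, in the 250 bases before each start in RefSeq promoters of GRCm38.p6. The letters sought were the left part of the RE1 element bound by the repressor REST (TTCAGCACC), its right part, the cAMP response element (TGACGTCA) and the TATA box (TATAAA). Of the 35 genes, 26 had a promoter there, 35 promoters in all. The left RE1 part was found only before Syn1 among them, and in 0.301% of 32851 promoters, and the cAMP response element only before Syn1, and in 1.55% of all. The right RE1 part was before none of them and in 0.42% of all. The flank of Syn1, whose protein clusters reserve vesicles, is shown because it is the 1 holding both the left RE1 part and the cAMP response element. It lies on the minus strand of chrX:20920919-20921168, with the exact matches in capitals (232 to 224 and 159 to 152 bases before the start).
Syn1: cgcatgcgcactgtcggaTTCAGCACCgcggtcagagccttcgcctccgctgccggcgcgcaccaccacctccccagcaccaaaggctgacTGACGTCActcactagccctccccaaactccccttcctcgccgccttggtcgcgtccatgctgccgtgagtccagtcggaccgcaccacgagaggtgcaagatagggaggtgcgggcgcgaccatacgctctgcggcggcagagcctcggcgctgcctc
These matches are letters in a window, not measured sites. Syn1 itself stood at 145 CPM in KO and 157 CPM in WT in excitatory neurons, 105 CPM in KO and 109.7 CPM in WT in inhibitory neurons and 48.1 CPM in KO and 41.2 CPM in WT in oligodendrocytes.

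Some of the best known vesicle genes did not show that gap on the CPM scale. Vamp2, the main vesicle SNARE of the forebrain, stood at 73.6 CPM in KO and 93.5 CPM in WT in excitatory neurons and 76.5 CPM in KO and 90.2 CPM in WT in inhibitory neurons, below 191 CPM in KO and 189.6 CPM in WT in astrocytes and 167 CPM in KO and 171 CPM in WT in oligodendrocytes. Rab3a, the vesicle GTPase, was also lower in neurons than in glia (0.653-fold in KO and 0.679-fold in WT), and Syp, the vesicle membrane protein synaptophysin, stood at 0.852-fold and 0.938-fold. Counted per nucleus, neurons held more of all of them. Vamp2 gave 0.869 UMIs per nucleus in KO and 1.03 in WT excitatory neurons, and 0.532 and 0.525 in astrocytes. Syp gave 1.99 and 1.66 in excitatory neurons, and 0.454 and 0.392 in oligodendrocytes. The CPM of a glial nucleus is taken over fewer UMIs, with a median of 1877 in KO and 2051 in WT oligodendrocytes, against 10422 and 10018 in excitatory neurons.

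**Figure D2:**
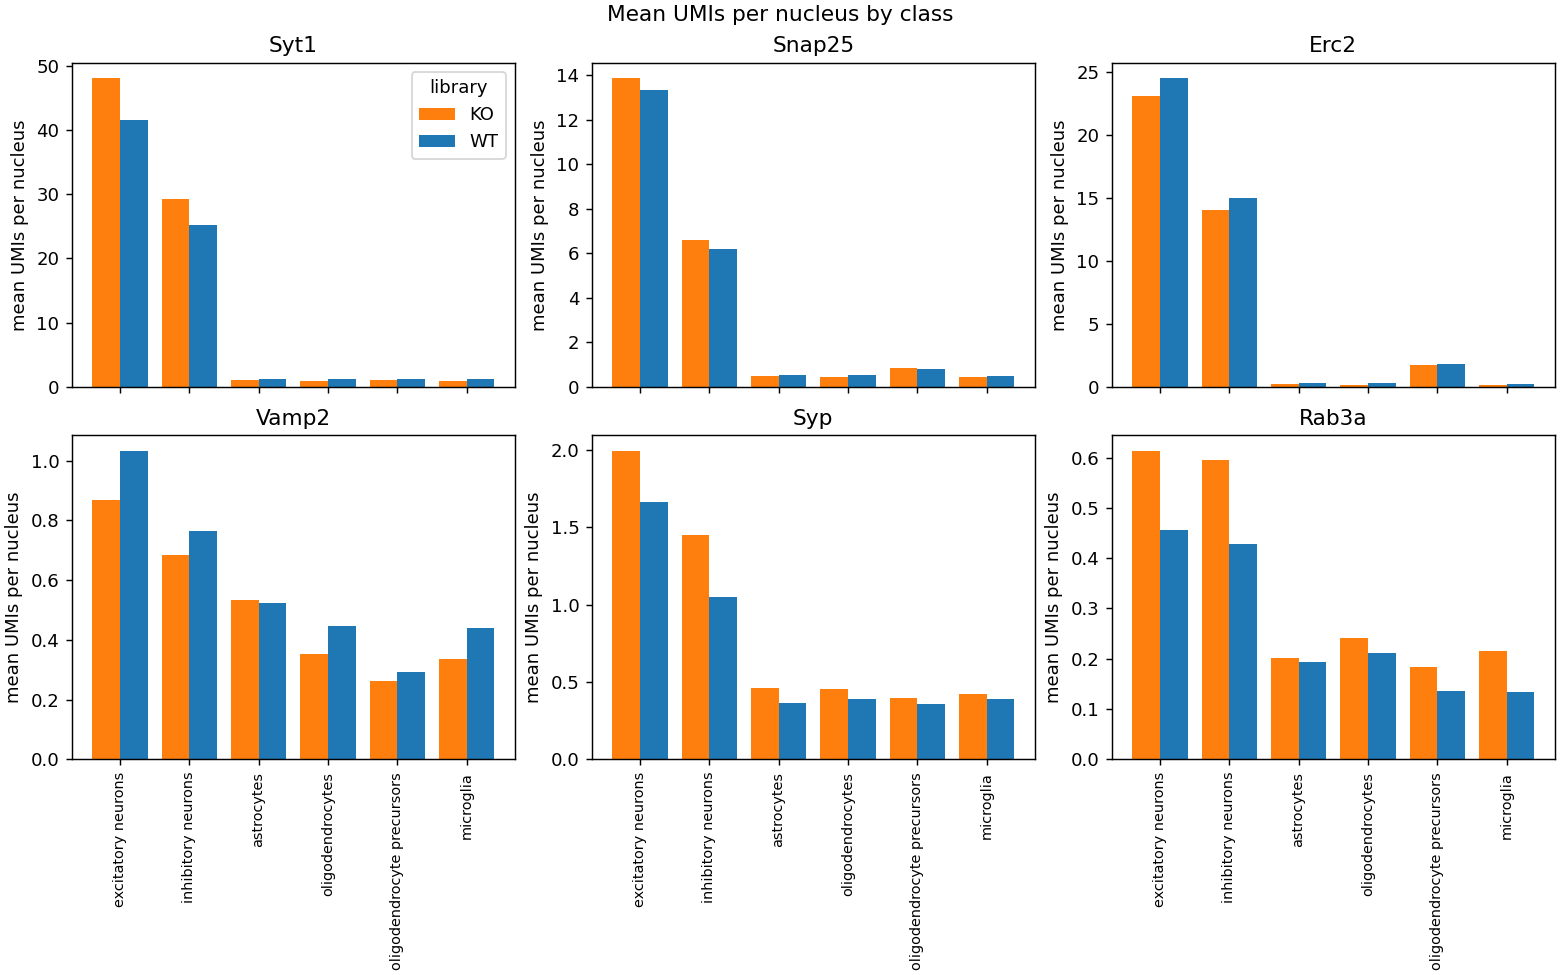
Mean UMIs per nucleus (y axis) of 6 genes in neurons and glia (x axis), KO bars left of WT bars; there is 1 library per genotype, so no error is drawn. Syt1, Snap25 and Erc2 stay under 2 UMIs per nucleus in every glial class shown, while glial bars of Vamp2, Syp and Rab3a reach a larger share of the neuronal ones.

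Free RNA in droplets can add neuronal UMIs to glia, so the summed level of Gad1 and Gad2, which glia should lack, was taken as a yardstick. It reached 32.4% of the neuron level in KO and 28.5% in WT astrocytes, 44.2% and 38.6% in oligodendrocyte precursors, 40.4% and 30.9% in oligodendrocytes, and 41.9% and 48.9% in microglia. Clear of it in both libraries, by intervals that do not overlap and with at least 20 UMIs in each, were 11 of the 35 genes in astrocytes, 5 in precursors, 10 in oligodendrocytes and 3 in microglia (Vamp2, Cplx2 and Syp). The same count was not made over all genes, whose median log2 ratio of neurons over glia was -0.11 in KO and -0.14 in WT. These counts are thus not read as particular to the release genes. Unc13c, or Munc13-3, a priming factor best known from cerebellar granule cells, had 202% of its neuron level in KO and 198% in WT precursors, from 221 and 192 UMIs. Precursors also held 77.5% and 81.00% of the Rims1, 84.4% and 87.3% of the Rims2 and 92.3% and 105% of the Syn2 level of neurons. Syt1, by contrast, stood at 9.27% and 11.3% in precursors, under the yardstick. Astrocytes held 69.1% in KO and 68.5% in WT of the Syn2 level of neurons, and 41.5% and 42.9% of that of Pclo. With fewer UMIs, Syt9 and Stx1a in precursors and Syt5, Vamp1 and Rab3a in microglia also met the interval rule. The other genes clear of it in astrocytes or oligodendrocytes were Syt4, Syt5, Syt9, Vamp1, Vamp2, Cplx1, Cplx2, Sv2a, Syp, Rab3a, Nsf and Dnm1. How much free RNA adds to these genes was not tested.

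Between excitatory and inhibitory neurons most of these genes lay within 1.5-fold, but some paralogs took opposite sides. In both libraries a larger share of them than of all genes was at least 1.5-fold higher in excitatory neurons. The share at least 1.5-fold lower was close to that of all genes. At least 1.5-fold higher in excitatory neurons were 9 genes in KO and 8 in WT, against 9.38% and 11.2% of all genes. At least 1.5-fold lower were 5 in each library, against 12.2% and 15.7%. The 4 highest ratios in both libraries belonged to Syt17, Sv2b, Stx1a and Unc13b. Syt6, Sv2c and Syt2 were the lowest in both, followed by Doc2b in KO (-1.07, against -1.12 in WT, on the log2 scale) and Syt10 in WT (-0.95 in KO and -1.28 in WT).

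Syt17 (chr7:118380717-118448222 in mm10, from GENCODE, as for the genes below) encodes a synaptotagmin that does not need calcium and acts in membrane traffic. Excitatory neurons held 89.5 CPM (84.4 to 94.9) in KO and 87.4 CPM (82.7 to 92.3) in WT, inhibitory neurons 9.71 CPM (8.66 to 10.9) and 7.58 CPM (6.84 to 8.39), a ratio of 9.22-fold and 11.5-fold. Other classes stood at 8.87 CPM in KO and 11.5 CPM in WT astrocytes, 5.19 and 15.6 CPM in precursors, 5.80 and 3.67 CPM in oligodendrocytes, 6.52 and 7.22 CPM in microglia and 4.89 and 0 CPM in vascular and meningeal nuclei (0 of 76736 UMIs, where the floor of 3 UMIs is 39.1 CPM). The level of inhibitory neurons as a whole was thus near that of glia, above every glial class in KO and below astrocytes and precursors in WT. Within inhibitory neurons it split by subtype: Nxph1 Sox6 GABA nuclei stood at 38.6 CPM in KO and 36.03 CPM in WT and cholinergic nuclei at 50.9 CPM in KO and 45.4 CPM in WT, while D1 medium spiny nuclei stood at 1.58 CPM in KO and 0.94 CPM in WT and D2 at 0.861 CPM in KO and 1.37 CPM in WT. Sim1 and Pdzrn3 Nwd2 excitatory nuclei were the highest, at 149 and 119 CPM in KO, and at 126 and 129 CPM in WT, with overlapping intervals.

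The Sv2 genes encode vesicle glycoproteins, which serve as receptors of botulinum neurotoxin A. Sv2b (chr7:75114894-75309262) stood at 680.4 CPM (666 to 695) in KO and 726 CPM (712 to 739.6) in WT excitatory neurons, and at 83.5 CPM (80.3 to 86.7) and 96.6 CPM (93.9 to 99.4) in inhibitory neurons. Sv2c (chr13:95954594-96132577) ran the other way, with 52.4 CPM (48.4 to 56.5) in KO and 56.3 CPM (52.6 to 60.3) in WT excitatory neurons and 208 CPM (203 to 213) and 228 CPM (224 to 232) in inhibitory neurons. Sv2a, the target of the drug levetiracetam, was spread over both (70.9 in KO and 65.2 CPM in WT excitatory neurons, 87.5 and 74.96 CPM in inhibitory neurons). Elsewhere Sv2b stood at 37.3 CPM in KO and 44.6 CPM in WT astrocytes, 20.7 and 50.1 CPM in precursors, 38.9 and 38.9 CPM in oligodendrocytes, 29.3 and 50.5 CPM in microglia and 58.6 and 52.1 CPM in vascular and meningeal nuclei. Sv2c stood at 20.7 CPM in KO and 37.3 CPM in WT astrocytes, 20.7 and 25.03 CPM in precursors, 36.9 and 54.4 CPM in oligodendrocytes, 32.6 and 43.3 CPM in microglia and 24.4 and 78.2 CPM in vascular and meningeal nuclei, the last from 5 KO and 6 WT UMIs. Sv2c in excitatory neurons as a whole was within or near those glial values.

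By subtype, Sv2c was highest in cholinergic nuclei in both libraries, at 589 CPM (517 to 668) in KO and 603 CPM (553 to 657) in WT. Foxp2 Tshz1 GABA nuclei followed at 314 CPM in KO and 322 CPM in WT, then D1 medium spiny nuclei at 277 CPM in KO and 266 CPM in WT. Nxph1 Sox6 and Adarb2-high GABA nuclei were low, at 30.00 and 17.4 CPM in KO and 36.5 and 44.9 CPM in WT. Sv2c levels thus ranged 33.9-fold in KO and 20.01-fold in WT from the lowest to the highest of the 13 subtypes. Sv2b was high in Rspo2, Nr4a2 Ntng2 and Pdzrn3 Nwd2 excitatory nuclei (823, 769 and 815 CPM in KO, 740.0, 802 and 955 CPM in WT). It was lower in Sim1 and Slc17a6 excitatory nuclei (469 and 304 CPM in KO, 524 and 293 CPM in WT). Sv2b was lowest in cholinergic nuclei, at 12.1 CPM in KO and 26.1 CPM in WT, where Sv2c was highest.

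The flanks of both genes, 250 bases before the RefSeq start in GRCm38.p6 and both on the minus strand, are shown because the paralogs Sv2b and Sv2c were highest in different neurons. That of Sv2b lies at chr7:75309263-75309512 and that of Sv2c at chr13:96132578-96132827. Capitals mark a TATA box letter match read on the opposite strand (TTTATA, 50 to 45 bases before the start), which 12.4% of all promoters hold on either strand.
Sv2b: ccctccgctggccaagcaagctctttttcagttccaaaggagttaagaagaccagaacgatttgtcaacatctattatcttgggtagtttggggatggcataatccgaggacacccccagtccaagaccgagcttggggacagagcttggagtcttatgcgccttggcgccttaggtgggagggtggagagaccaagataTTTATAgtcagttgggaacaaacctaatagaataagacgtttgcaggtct
Sv2c: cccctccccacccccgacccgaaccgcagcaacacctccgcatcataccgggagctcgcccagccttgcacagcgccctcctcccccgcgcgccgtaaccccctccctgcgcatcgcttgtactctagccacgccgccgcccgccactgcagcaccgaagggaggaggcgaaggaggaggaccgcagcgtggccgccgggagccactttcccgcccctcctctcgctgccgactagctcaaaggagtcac
None of the 4 motifs was found in the Sv2c window, and only Sv2b, in 2 of the 35 promoters, held the TATA box letters.

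Stx1a (chr5:135023482-135051100), a plasma membrane SNARE, stood at 76.8 CPM (72.02 to 81.8) in KO and 88.9 CPM (84.2 to 93.9) in WT excitatory neurons, and at 15.5 CPM (14.2 to 16.95) and 15.6 CPM (14.5 to 16.7) in inhibitory neurons, 4.95-fold and 5.70-fold. Other classes stood at 14.8 CPM in KO and 18.4 CPM in WT astrocytes, 41.5 and 34.4 CPM in precursors, 12.8 and 12.5 CPM in oligodendrocytes, 22.8 and 7.22 CPM in microglia and 14.7 and 13.03 CPM in vascular and meningeal nuclei, near the inhibitory level or, in precursors, above it. Unc13b (chr4:43058953-43264871), or Munc13-2, stood at 224 CPM (216 to 232) in KO and 226 CPM (219 to 234) in WT excitatory neurons, and at 55.1 CPM (52.6 to 57.8) and 50.6 CPM (48.7 to 52.6) in inhibitory neurons, 4.06-fold and 4.47-fold. Both genes were thus mainly excitatory, with cholinergic nuclei as the exception among inhibitory subtypes: Unc13b reached 169.6 CPM in KO and 176 CPM in WT there, and Stx1a 50.9 CPM in KO and 36.4 CPM in WT. In other classes Unc13b stood at 34.3 CPM in KO and 54.3 CPM in WT astrocytes, 77.8 and 62.6 CPM in precursors, 16.99 and 27.2 CPM in oligodendrocytes, 29.3 and 14.4 CPM in microglia and 210.1 and 91.2 CPM in vascular and meningeal nuclei, the last from 43 and 7 UMIs.

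Syt6 (chr3:103575231-103645569), a synaptotagmin known from the sperm acrosome reaction, had the lowest ratio of excitatory over inhibitory level, with 10.5 CPM (8.77 to 12.4) in KO and 17.3 CPM (15.2 to 19.5) in WT excitatory neurons, and 70.1 CPM (67.3 to 73.1) and 89.8 CPM (87.2 to 92.5) in inhibitory neurons. Other classes stood at 11.2 CPM in KO and 15.2 CPM in WT astrocytes, 20.7 and 25.03 CPM in precursors, 13.7 and 16.9 CPM in oligodendrocytes, 26.1 and 57.8 CPM in microglia and 4.89 and 0 CPM in vascular and meningeal nuclei (0 of 76736 UMIs, where the floor of 3 UMIs is 39.1 CPM). Excitatory neurons as a whole were therefore at the level of glia for this gene. Their highest subtype, Rspo2, had 26.5 CPM in KO and 30.6 CPM in WT, just above the highest glial value in KO (microglia, from 8 UMIs) and within the glial range in WT. Syt2 (chr1:134646677-134762593), the fast sensor of hindbrain and fast-spiking synapses, had 10.4 CPM (8.70 to 12.4) in KO and 10.5 CPM (8.94 to 12.3) in WT excitatory neurons, and 33.2 CPM (31.2 to 35.3) and 30.5 CPM (28.96 to 32.05) in inhibitory neurons. Other classes stood at 16.6 CPM in KO and 12.4 CPM in WT astrocytes, 10.4 and 15.6 CPM in precursors, 14.1 and 11.8 CPM in oligodendrocytes, 22.8 and 14.4 CPM in microglia and 24.4 and 26.1 CPM in vascular and meningeal nuclei. Excitatory neurons as a whole were again at the level of glia. Slc17a6 excitatory nuclei stood above it in WT, at 45.7 CPM. Doc2b (chr11:75768966-75796049), a sensor with high calcium affinity, had 9.29 CPM (7.68 to 11.1) in KO and 11.8 CPM (10.1 to 13.7) in WT excitatory neurons, and 19.5 CPM (18.02 to 21.1) and 25.6 CPM (24.2 to 27.1) in inhibitory neurons. Other classes stood at 11.8 CPM in KO and 10.6 CPM in WT astrocytes, 10.4 and 3.13 CPM in precursors, 9.53 and 8.82 CPM in oligodendrocytes, 9.77 and 7.22 CPM in microglia and 9.77 and 26.1 CPM in vascular and meningeal nuclei, so that Doc2b in excitatory neurons was at the glial level as well.

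**Figure D3:**
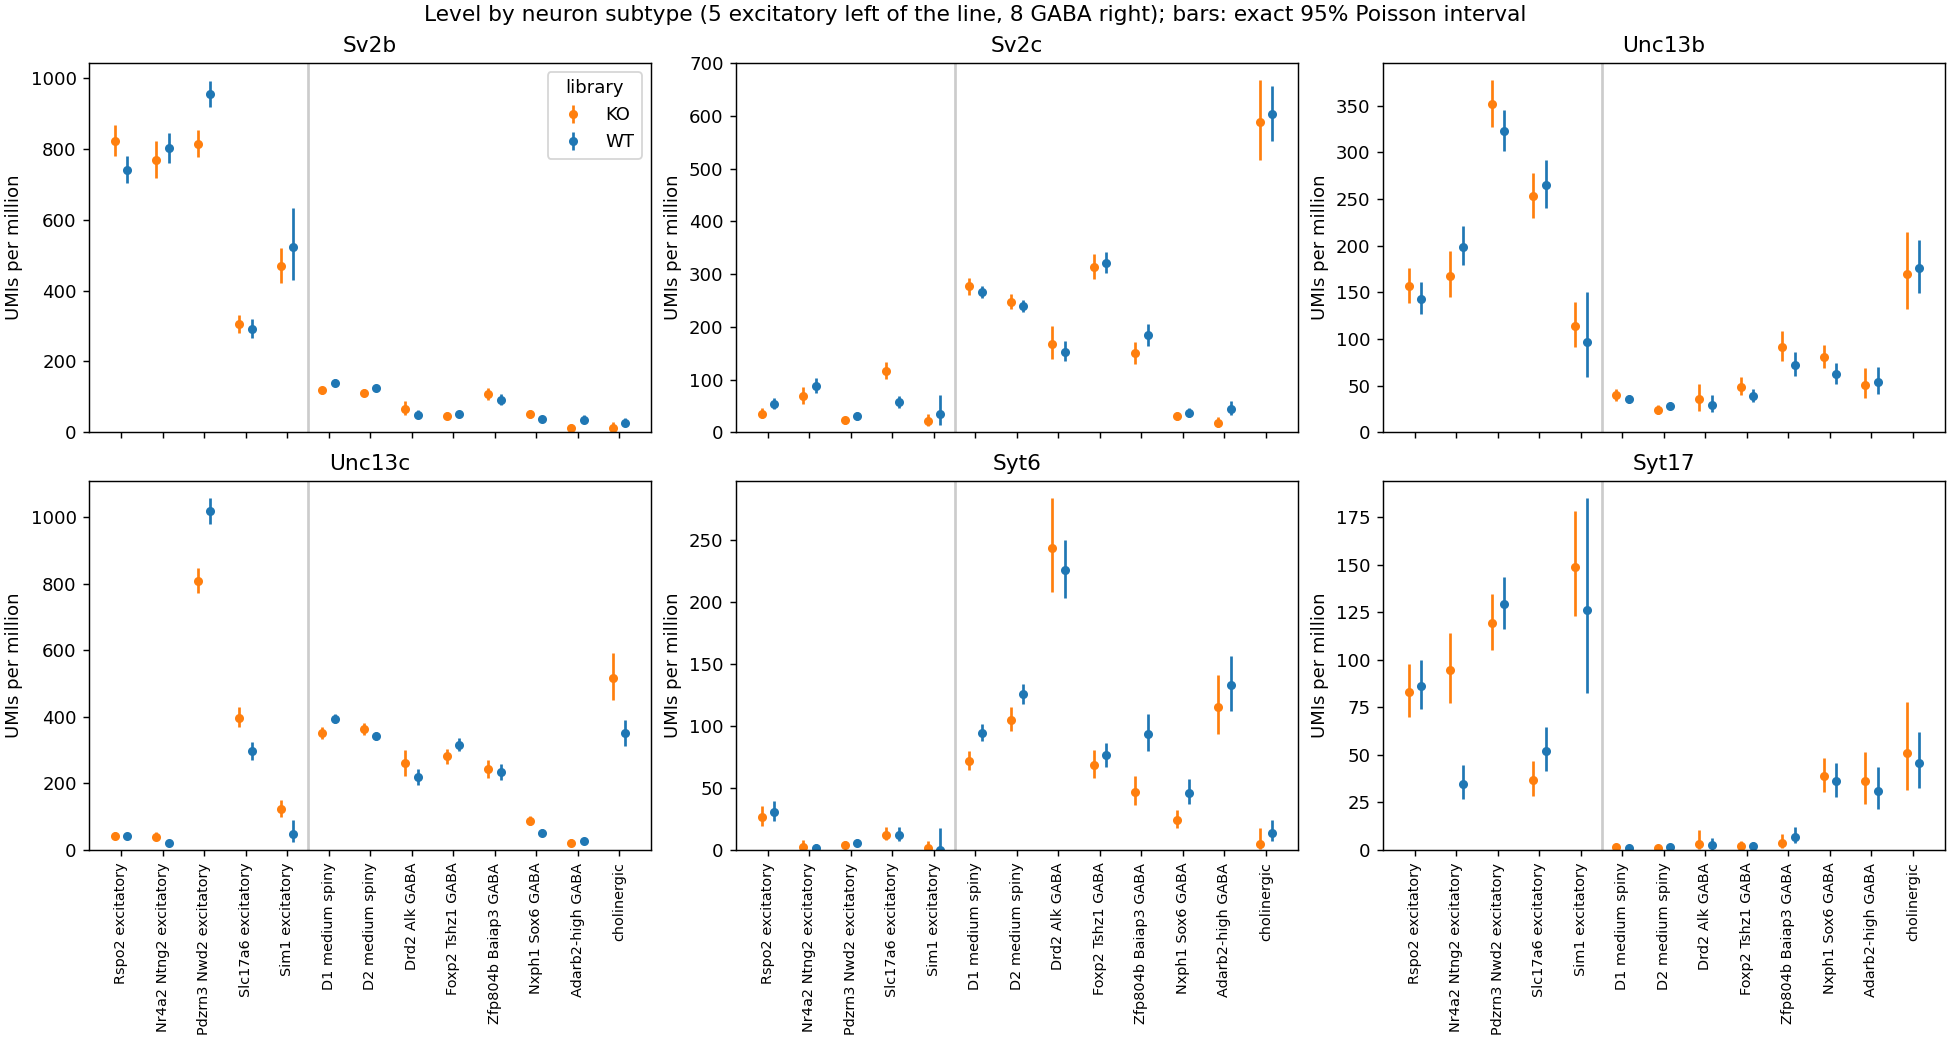
Level (y axis, CPM) of 6 genes in the 13 neuron subtypes (x axis, excitatory left of the grey line), KO orange and left of WT blue, with exact 95% Poisson intervals. Sv2b is high in excitatory and Sv2c in cholinergic and other inhibitory nuclei, Unc13b and Unc13c share their highest subtype, Syt6 peaks in Drd2 Alk GABA nuclei and Syt17 is near 0 in medium spiny nuclei.

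The subtype with the highest level was the same in both libraries for 20 of the 35 genes, and for 9 of them its interval was clear of the next subtype in both. These counts were not made over all genes, so they are not read as a trait of the release genes. Among calcium sensors, Syt6 was highest in Drd2 Alk GABA nuclei, at 244 CPM (208 to 284) in KO and 226 CPM (203 to 250.4) in WT, ahead of Adarb2-high GABA nuclei at 115 and 133 CPM. Syt2 was highest in Adarb2-high GABA nuclei, at 69.5 CPM (52.5 to 90.3) and 98.1 CPM (80.4 to 119). Syt9, a fast sensor of limbic and striatal neurons, was highest in Sim1 excitatory nuclei, at 125 CPM (101 to 152) and 107 CPM (66.9 to 162), the last from 22 UMIs. Every Sim1 level rests on 78 KO and 19 WT nuclei. These 3 sensors thus each led in another subtype. Syt10, linked to growth factor secretion in the mouse olfactory bulb, was highest in D1 medium spiny nuclei (103 and 58.3 CPM), with D2 next (75.8 and 53.03 CPM). Syt1 varied little, from 2926 to 5136 CPM in KO and 2630.1 to 4695 CPM in WT, with Nr4a2 Ntng2 excitatory nuclei at the top of both. Syt7, a sensor of slower release, favoured excitatory nuclei, led by Pdzrn3 Nwd2 nuclei in KO (166 CPM) and Rspo2 nuclei in WT (193 CPM). Syt4 was highest in Sim1 nuclei in KO (115 CPM) and in Nr4a2 Ntng2 nuclei in WT (101 CPM). Syt5 led in Sim1 nuclei in KO (109.6 CPM) and Zfp804b Baiap3 GABA nuclei in WT (84.9 CPM), and Doc2b in D1 medium spiny nuclei in KO (28.4 CPM) and Drd2 Alk GABA nuclei in WT (33.96 CPM).

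In the SNARE machinery, levels in the lead subtype were often close to those of the next. Snap25 was highest in Pdzrn3 Nwd2 excitatory nuclei, at 1383 CPM in KO and 1509 CPM in WT, and lowest in medium spiny nuclei, at 559 in KO D1 and 601 CPM in WT D2 nuclei. Nsf, the ATPase, followed the same top subtype (373 CPM in KO and 403 CPM in WT). Cplx1 and Cplx2 parted: Cplx1 led in Nxph1 Sox6 GABA nuclei (106 CPM in KO and 122 CPM in WT), Cplx2 in D1 medium spiny nuclei (141 CPM in KO and 169 CPM in WT). Complexins clamp fusion and promote it once calcium arrives. Vamp2 was highest in Slc17a6 excitatory nuclei in both libraries (106 CPM in KO and 117 CPM in WT), while Vamp1 led there only in KO (59.7 CPM) and in Sim1 nuclei in WT (53.3 CPM). Stxbp5l peaked in Sim1 nuclei in KO (1005 CPM) and Pdzrn3 Nwd2 nuclei in WT (872 CPM), and Stx1a in Nr4a2 Ntng2 nuclei in KO (89.8 CPM) and Sim1 nuclei in WT (121 CPM).

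Of the 8 active zone and priming genes, 4 peaked in the same excitatory subtype in both libraries. The share of all genes that peak in that subtype was not taken. In Pdzrn3 Nwd2 excitatory nuclei, Unc13c reached 808 CPM (771 to 847) in KO and 1018 CPM (980.1 to 1056) in WT, Unc13b 352 CPM (327 to 378) and 323 CPM (302 to 345), and Rims1 2466 CPM (2401 to 2533) and 2307 CPM (2250.4 to 2365), each the highest of the 13 subtypes in both libraries. Bsn was highest there too (300.4 CPM in KO and 374 CPM in WT), with Nr4a2 Ntng2 nuclei close (269 CPM in KO and 370.0 CPM in WT). These nuclei were also the deepest, with a median of 17543 UMIs in KO and 13234 in WT, and the part of depth in these levels was not tested. Unc13c, unlike Unc13b, was low in Rspo2 excitatory nuclei (42.6 CPM in KO and 41.4 CPM in WT) and high in cholinergic nuclei (516 CPM in KO and 349.9 CPM in WT), a span of 40.7-fold in KO and 45.9-fold in WT over the subtypes. Unc13a, the main priming factor of the forebrain, spanned only 1.55-fold in KO and 1.74-fold in WT. Rims2 led in Foxp2 Tshz1 GABA nuclei (1542 CPM (1490.0 to 1595) in KO and 1460.4 CPM (1419 to 1503) in WT) and Pclo in Adarb2-high GABA nuclei (1074 CPM (1003 to 1148) and 1119.9 CPM (1058 to 1185)), so that the pairs Rims1 and Rims2, and Bsn and Pclo, peaked in different subtypes. Erc2 was highest in Pdzrn3 Nwd2 nuclei in KO (2874 CPM) and in Nr4a2 Ntng2 nuclei in WT (3085 CPM), with cholinergic nuclei next in both (2763 CPM in KO and 3014 CPM in WT).

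Among the other vesicle genes, Syn1 was highest in Nr4a2 Ntng2 excitatory nuclei (171 CPM in KO and 178 CPM in WT) and Syp in Slc17a6 excitatory nuclei (246 CPM in KO and 230.4 CPM in WT) in both libraries. Dnm1, the GTPase of vesicle retrieval, led in Sim1 nuclei (193 CPM in KO and 209 CPM in WT) and was lowest in cholinergic nuclei (116 CPM in KO and 99.98 CPM in WT). Cholinergic nuclei were also lowest for Syn2, at 317 CPM in KO and 252 CPM in WT. The top subtype of the remaining genes differed between the libraries: Syn2 led in Adarb2-high GABA nuclei in KO (737 CPM) and Sim1 nuclei in WT (737 CPM), Syn3 in D2 medium spiny nuclei in KO (305 CPM) and Zfp804b Baiap3 GABA nuclei in WT (342 CPM). Sv2a led in Adarb2-high GABA nuclei in KO (134 CPM) and Nxph1 Sox6 GABA nuclei in WT (126 CPM), as did Rab3a (75.7 and 75.2 CPM).

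D2 medium spiny nuclei set against D1 medium spiny nuclei showed most of the release genes at like levels in both libraries. At least 1.5-fold lower in D2 nuclei were 4 of 34 genes in KO and 2 in WT, where 3.61% and 3.47% of all genes were, and 0 were higher, where 2.43% and 1.93% were. Syt7 stood at 70.8 CPM in D2 and 117 CPM in D1 nuclei of KO, and at 77.1 and 120.1 CPM in WT. Syt9 stood at 10.98 and 23.03 CPM in KO, and at 11.7 and 21.4 CPM in WT. Syt6 ran the other way, with 105 CPM in D2 and 71.8 CPM in D1 nuclei of KO, and 126 and 94.6 CPM in WT.

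The comparison of genotypes asks whether the release machinery differed between the KO and the WT library within neurons. Few of its genes passed 1.5-fold. In excitatory neurons 1 of 35 genes, Syt6, passed 1.5-fold in either direction, where 6.60% of all genes did, and in inhibitory neurons 0 of 35, where 6.12% did. Ratios below are log2 of KO over WT CPM, followed by their exact 95% counting interval. Their median was -0.04 in excitatory neurons (14 genes higher and 21 lower) and 0.01 in inhibitory neurons (18 higher and 17 lower). Over all genes the medians were 0.05 in both. The counting interval left out 0 for 27 genes in excitatory and 30 in inhibitory neurons. That share was not taken over all genes, and small ratios clear 0 where UMIs are many. These counts are thus not read as particular to the release genes. Their median absolute log2 ratio was 0.148 in excitatory and 0.165 in inhibitory neurons. Over all genes with at least 100 UMIs it was 0.180 and 0.168.

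**Figure D4:**
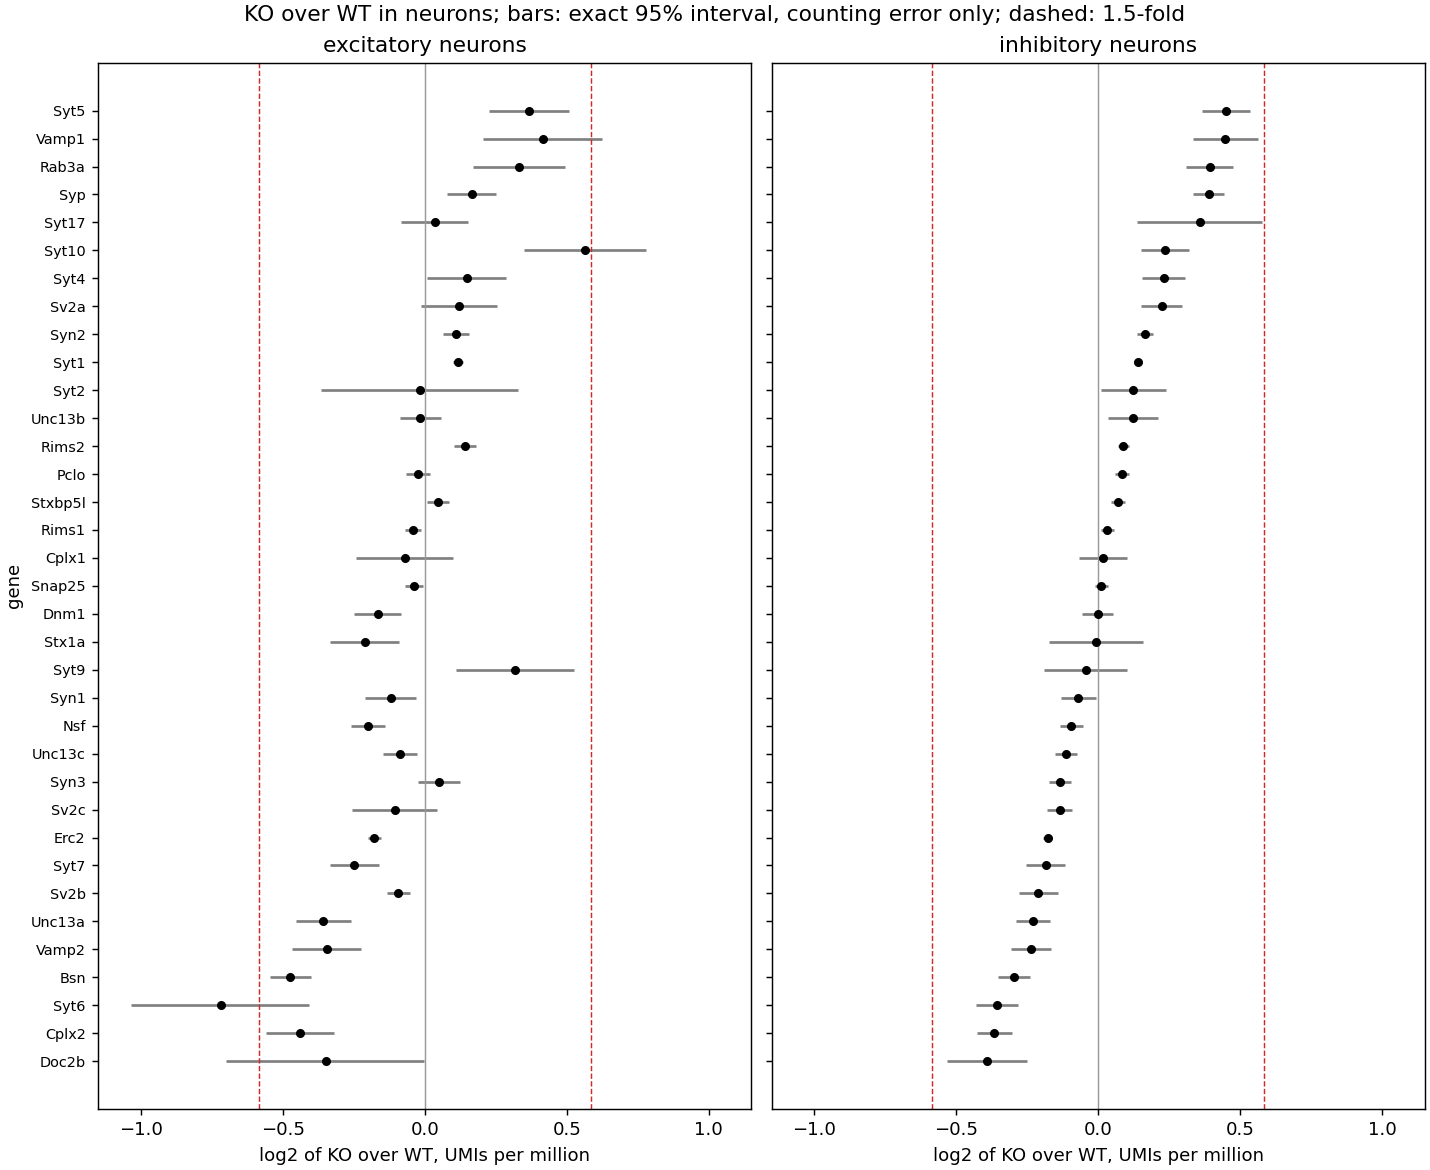
Log2 of KO over WT (x axis) of the 35 genes (rows, ordered by the inhibitory ratio) in excitatory (left) and inhibitory neurons (right), with exact 95% intervals for counting error. Red dashed lines mark 1.5-fold; the Syt6 point in excitatory neurons is the only point beyond them, at -0.72.

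Syt6 stood at 10.5 CPM in KO and 17.3 CPM in WT in excitatory neurons (log2 ratio -0.72, -1.03 to -0.41), from 131 and 254 UMIs, and at -0.36 with nuclei thinned to 1000 UMIs. Both levels are those of glia, so this ratio is not read as a change of expression in excitatory neurons. In inhibitory neurons, where Syt6 was well above glia, it stood at 70.1 CPM in KO and 89.8 CPM in WT (log2 ratio -0.36, -0.43 to -0.28). It was lower in KO in 6 of 7 inhibitory subtypes with at least 20 UMIs, with intervals below 0 in 4. Zfp804b Baiap3 GABA nuclei had 46.8 CPM in KO and 93.97 CPM in WT (log2 ratio -1.01, -1.44 to -0.59) and Nxph1 Sox6 GABA nuclei 24.4 CPM in KO and 46.3 CPM in WT (log2 ratio -0.92, -1.46 to -0.40), and those of Nxph1 Sox6 nuclei lie within the range of glia. Drd2 Alk GABA nuclei, where the gene is highest, had a ratio near 0 (log2 ratio 0.11, -0.16 to 0.38).

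The other calcium sensors lay within 1.5-fold in both classes. Excitatory neurons had Syt10 at 32.4 CPM in KO and 21.95 CPM in WT (log2 ratio 0.56, 0.35 to 0.78), close to glia (10.4 to 26.1 CPM in KO and 10.3 to 36.1 CPM in WT). Inhibitory neurons had 62.8 CPM in KO and 53.3 CPM in WT (log2 ratio 0.24, 0.15 to 0.32). Among inhibitory subtypes its highest called ratio was in D1 medium spiny nuclei, at 103 CPM in KO and 58.3 CPM in WT (log2 ratio 0.81, 0.62 to 1.01). Syt5 was higher in KO in 4 of 5 excitatory and 8 of 8 inhibitory subtypes, and stood at 69.99 CPM in KO and 54.2 CPM in WT in excitatory (log2 ratio 0.37, 0.23 to 0.51) and 68.4 CPM in KO and 50.02 CPM in WT in inhibitory neurons (log2 ratio 0.45, 0.37 to 0.53). Syt1 was slightly higher in both (log2 ratio 0.12, 0.10 to 0.13 in excitatory, log2 ratio 0.14, 0.13 to 0.15 in inhibitory neurons), and in 5 of 5 and 8 of 8 subtypes. Syt7 (-0.25 and -0.18) and Doc2b (-0.35 and -0.39) were lower in KO in excitatory and inhibitory neurons, and Syt4 higher (0.15 and 0.23). Syt17 (0.03 and 0.36), Syt9 (0.32 and -0.04) and Syt2 (-0.02 and 0.12) made up the rest. In excitatory neurons the levels of Doc2b and Syt2 were those of glia, and in inhibitory neurons the level of Syt17 was near that of glia. As for Syt6, these ratios are not read as changes of expression in those neurons.

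The vesicle SNAREs stood on opposite sides of 0. Vamp1 stood at 32.3 CPM in KO and 24.2 CPM in WT in excitatory (log2 ratio 0.42, 0.21 to 0.63) and 36.7 CPM in KO and 26.9 CPM in WT in inhibitory neurons (log2 ratio 0.45, 0.33 to 0.56). By subtype Vamp1 was less uniform. It was higher in KO in 3 of 5 excitatory subtypes, with intervals above 0 in 0, and in 7 of 8 inhibitory subtypes, with intervals above 0 in 3. Vamp2 stood at 73.6 CPM in KO and 93.5 CPM in WT in excitatory (log2 ratio -0.35, -0.47 to -0.22) and 76.5 CPM in KO and 90.2 CPM in WT in inhibitory neurons (log2 ratio -0.24, -0.31 to -0.17), and was lower in KO in all 5 excitatory and all 8 inhibitory subtypes. Cplx2 was lower as uniformly, in 5 of 5 and 8 of 8 subtypes, with 75.3 CPM in KO and 102 CPM in WT in excitatory (log2 ratio -0.44, -0.56 to -0.32) and 102 CPM in KO and 131 CPM in WT in inhibitory neurons (log2 ratio -0.37, -0.43 to -0.30). Its paralog Cplx1 stood close to 0 (-0.07 and 0.02). Snap25 (-0.04 and 0.01), Stxbp5l (0.05 and 0.07), Nsf (-0.20 and -0.09) and Stx1a (-0.21 and -0.01) differed by less. Snap25 lies on chromosome 2, as does Sema6d, and so does Dnm1 (-0.17 and -0.0018).

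At the active zone, Bsn and Unc13a were the lowest in KO. Bsn stood at 205 CPM in KO and 285 CPM in WT in excitatory (log2 ratio -0.47, -0.55 to -0.40) and 125 CPM in KO and 153 CPM in WT in inhibitory neurons (log2 ratio -0.30, -0.35 to -0.24). Unc13a stood at 116 CPM in KO and 149 CPM in WT in excitatory (log2 ratio -0.36, -0.45 to -0.26) and 104 CPM in KO and 122 CPM in WT in inhibitory neurons (log2 ratio -0.23, -0.29 to -0.17). Both were lower in KO in all 13 subtypes, with Bsn ratios between -0.52 and -0.17. Erc2 was lower in both classes (-0.18 and -0.18). Pclo (-0.02 and 0.08), Rims1 (-0.04 and 0.03), Rims2 (0.14 and 0.09), Unc13b (-0.02 and 0.12) and Unc13c (-0.09 and -0.11) lay nearer to 0. Below class level Unc13c varied: cholinergic nuclei had 516 CPM in KO and 349.9 CPM in WT (log2 ratio 0.56, 0.30 to 0.82), Nxph1 Sox6 GABA nuclei 86.96 CPM in KO and 51.99 CPM in WT (log2 ratio 0.74, 0.38 to 1.11) and Pdzrn3 Nwd2 excitatory nuclei 808 CPM in KO and 1018 CPM in WT (log2 ratio -0.33, -0.42 to -0.25).

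Of the vesicle proteins, Rab3a and Syp were higher in KO in both neuron classes, and in summed glia as well. Rab3a stood at 51.98 CPM in KO and 41.3 CPM in WT in excitatory (log2 ratio 0.33, 0.17 to 0.50) and 66.5 CPM in KO and 50.7 CPM in WT in inhibitory neurons (log2 ratio 0.39, 0.31 to 0.48). Syp stood at 169 CPM in KO and 151 CPM in WT in excitatory (log2 ratio 0.17, 0.08 to 0.25) and 162 CPM in KO and 124 CPM in WT in inhibitory neurons (log2 ratio 0.39, 0.34 to 0.44), and was higher in 3 of 5 excitatory and 8 of 8 inhibitory subtypes. Rab3a was higher in 4 of 5 and 6 of 8. Both genes, like Vamp1, Syt5, Vamp2 and Cplx2, had CPM in glia close to or above that of neurons. In summed glia Syp stood at 192 CPM in KO and 139 CPM in WT. Rab3a stood there at 95.5 CPM in KO and 71.4 CPM in WT, and Cplx2 at 96.7 and 135 CPM. These were the directions seen in neurons, as for Syt5 (58.6 and 52.4 CPM) and Vamp2 (171 and 177 CPM). Vamp1 (38.4 and 40.1 CPM) went the other way in summed glia, but not in each class. Per nucleus it gave 0.186 UMIs in KO and 0.168 in WT astrocytes, 0.0404 and 0.0268 in oligodendrocytes, and 0.0526 and 0.0337 in precursors. Only microglia were lower in KO (0.0995 and 0.134). Oligodendrocytes, the lowest of these classes for Vamp1, were 1139 nuclei in KO and 523 in WT. Summed glia thus mix classes in different shares, and the part of that mix was not tested. Per nucleus Rab3a differed little in astrocytes (0.201 UMIs in KO and 0.194 in WT) and more in oligodendrocytes (0.241 and 0.210). The ratios of Syp, Rab3a, Cplx2 and Vamp1 are therefore not read as particular to neurons. How much RNA from outside a nucleus adds to the ratios of these genes was not tested. Syn1 (-0.12 and -0.07), Syn2 (0.11 and 0.17), Syn3 (0.05 and -0.13), Sv2a (0.12 and 0.22), Sv2b (-0.09 and -0.21) and Sv2c (-0.11 and -0.14) lay closer to 0 in excitatory and inhibitory neurons.

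Single subtypes gave larger ratios. Of genes with at least 100 UMIs, those past 1.5-fold in either direction were 1 of 31 in Rspo2 nuclei (Sv2c, lower; 6.76% of all genes), 3 of 27 in Nr4a2 Ntng2 nuclei (Syt17 and Syn2 higher, Cplx2 lower, 9.87%), 1 of 30 in Pdzrn3 Nwd2 nuclei (Cplx2, lower, 7.81%), 2 of 33 in Slc17a6 nuclei (Sv2c higher, Syt2 lower, 6.33%) and 3 of 21 in Sim1 nuclei (Unc13c higher, Unc13a and Rims2 lower, 15.4%). Among inhibitory subtypes they were 1 of 34 in D1 medium spiny nuclei (Syt10, higher, 5.63%), 2 of 34 in D2 (Vamp1 higher, Doc2b lower, 4.90%), 2 of 26 in Drd2 Alk (Syt5 and Syp, higher, 9.34%), 3 of 32 in Foxp2 Tshz1 (Syt5 and Vamp1 higher, Doc2b lower, 6.24%) and 2 of 29 in Zfp804b Baiap3 nuclei (Syt6 and Vamp2, lower, 6.15%). Nxph1 Sox6 nuclei had 3 of 31 (Unc13c higher, Syt2 and Syt6 lower, 4.93%), Adarb2-high nuclei 1 of 25 (Syt4, higher, 7.14%) and cholinergic nuclei 1 of 21 (Unc13a, lower, 9.13%). Each count was of 1 to 3 genes, and none is read as particular to the release genes. Sv2c in Slc17a6 excitatory nuclei stood at 115 CPM in KO and 56.5 CPM in WT (log2 ratio 1.03, 0.67 to 1.41). Syt17 in Nr4a2 Ntng2 excitatory nuclei stood at 94.3 CPM in KO and 34.7 CPM in WT (log2 ratio 1.44, 0.97 to 1.92), and Syn2 in the same nuclei at 684 CPM in KO and 429.7 CPM in WT (log2 ratio 0.67, 0.52 to 0.82). Unc13a in cholinergic nuclei stood at 99.4 CPM in KO and 194 CPM in WT (log2 ratio -0.97, -1.50 to -0.47). These rest on few nuclei, namely 189 KO and 178 WT in the Slc17a6, 91 and 154 in the Nr4a2 Ntng2 and 31 and 64 in the cholinergic gate. The Sim1 gate had the fewest in WT, with 78 KO and 19 WT nuclei. A gate can hold different mixtures of cells in the 2 libraries, which was not tested. Markers of other cells differed as well. All 10 microglial markers were higher in KO in both neuron classes, with a summed level of 74.2 CPM in KO and 44.5 CPM in WT in excitatory and 101 CPM in KO and 68.96 CPM in WT in inhibitory neurons. Summed oligodendrocyte markers stood at 329.9 CPM in KO and 278 CPM in WT in excitatory and 429 CPM in KO and 457 CPM in WT in inhibitory neurons, astrocyte markers at 245 CPM in KO and 215 CPM in WT and at 652 CPM in KO and 696 CPM in WT, and precursor markers at 662 CPM in KO and 573 CPM in WT and at 619 CPM in KO and 616 CPM in WT, with none of these markers at 0. The part of such RNA in the ratios was not tested.

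In glia several release genes were lower in KO. In astrocytes 5 of 26 genes with at least 100 UMIs were at least 1.5-fold lower, where 4.74% of all genes were, and in oligodendrocytes 3 of 24, where 4.78% were. In precursors 0 of 10 and in microglia 0 of 4 genes passed 1.5-fold in either direction, where 7.41% and 13.0% of all genes did. Unc13c in astrocytes stood at 68.02 CPM in KO and 141 CPM in WT (log2 ratio -1.05, -1.38 to -0.74), Sv2c at 20.7 CPM in KO and 37.3 CPM in WT (log2 ratio -0.85, -1.46 to -0.26), Rims1 at 52.05 CPM in KO and 90.7 CPM in WT (log2 ratio -0.80, -1.18 to -0.43), Unc13b at 34.3 CPM in KO and 54.3 CPM in WT (log2 ratio -0.66, -1.14 to -0.20) and Stxbp5l at 41.99 CPM in KO and 63.5 CPM in WT (log2 ratio -0.60, -1.03 to -0.17). In oligodendrocytes these were Stxbp5l, at 55.9 CPM in KO and 109 CPM in WT (log2 ratio -0.97, -1.32 to -0.62), Rims1, at 87.8 CPM in KO and 138 CPM in WT (log2 ratio -0.65, -0.94 to -0.36), and Erc2, at 79.6 CPM in KO and 123 CPM in WT (log2 ratio -0.63, -0.93 to -0.32). Sv2c, Rims1, Stxbp5l and Erc2 stood under the Gad yardstick in these cells, so they are not read as expression by glia. Unc13c was at 23.96% of its neuron level in KO and 46.6% in WT astrocytes, and Unc13b at 33.4% and 59.9%. The yardstick was 32.4% in KO and 28.5% in WT, so that Unc13c exceeded it in WT and not in KO. In precursors, where Unc13c was highest among glia, it stood at 573 CPM in KO and 601 CPM in WT (log2 ratio -0.07, -0.35 to 0.22).

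Other genes of the release pathway were mostly within 1.5-fold too, with Vamp7 of the SNARE list not matched and not analysed here. Of 18 SNARE genes and regulators outside the set with at least 100 UMIs in excitatory neurons, 0 were at least 1.5-fold higher and 1 lower, of 10 other synaptotagmins and sensors 0 and 1, of 16 active zone genes 0 and 1, of 20 vesicle genes 0 and 0, and of 25 endocytosis genes 0 and 1. Over all genes, 4.02% were that much higher and 2.58% lower. In inhibitory neurons the counts were 0 and 1 of 17, 1 and 0 of 11, 0 and 0 of 16, 0 and 0 of 21, and 0 and 0 of 25, against 3.89% and 2.22% of all genes. List medians lay between -0.14 and 0.13. The genes past 1.5-fold were Cplx3, Syt12, Rims4 and Pacsin1 in excitatory neurons, and Snap29 and Doc2a in inhibitory neurons. Pacsin1, a membrane-bending partner of dynamin, stood at 165 CPM in KO and 263 CPM in WT (log2 ratio -0.68, -0.76 to -0.60), and Rims4, a short Rim protein, at 23.1 CPM in KO and 37.2 CPM in WT (log2 ratio -0.68, -0.89 to -0.48). Syt12 stood at 13.1 CPM in KO and 19.98 CPM in WT (log2 ratio -0.61, -0.89 to -0.33) and Cplx3, a complexin of ribbon synapses, at 2.88 CPM in KO and 4.76 CPM in WT (log2 ratio -0.72, -1.34 to -0.12). In inhibitory neurons Snap29 stood at 8.14 CPM in KO and 12.4 CPM in WT (log2 ratio -0.61, -0.82 to -0.40) and Doc2a, a sensor related to Doc2b, at 7.57 CPM in KO and 4.82 CPM in WT (log2 ratio 0.65, 0.39 to 0.92).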

How the data were processed

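Nuclei of the amygdala of Sema6d-/- (KO) and wild-type (WT) mice were measured by single-nucleus RNA sequencing with the 10x 5' kit, 1 library per genotype. The authors deposited raw UMI counts per gene and barcode, whole numbers that are not normalized, made with Cell Ranger 6.0.0 against mm10 per the submitters' processing notes. Annotation, intron handling and nucleus calling were not given in the sources used here. As deposited, the matrices held 8666 KO barcodes with 60402979 UMIs and 11060 WT barcodes with 85124128 UMIs.

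Symbols were matched by identifier (32158 of 32285). Barcodes under 500 genes (143 in KO, 12 in WT) or over 5% mitochondrial UMIs (428 and 259) were left out, as were doublets called by Scrublet in scanpy 1.11.5 (276, or 3.39%, and 519, or 4.81%). Neurons needed 15 UMIs of pan-neuronal markers per 10000 UMIs, and 2 UMIs of excitatory or inhibitory markers at 3 times the other. Glia needed fewer than 15, and 3 UMIs of 1 list at 3 times the next. Gate thresholds were set after seeing the data, and 245 KO and 264 WT nuclei had a neuronal score of 12 to 18. The 35 genes and all lists were chosen with earlier results of these data known.

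UMIs were summed per class and library. Log2 ratios of CPM need at least 20 UMIs, counts past 1.5-fold at least 100, and carry exact 95% intervals (conditional binomial for ratios, Poisson for levels). A count of 0 was set to 3 per library. The ratio and interval code was tested on simulated data. All 35 genes were named, with full values for those past 1.5-fold in a neuron class and for the 4 highest and 4 lowest excitatory over inhibitory ratios, and other pathway genes only past 1.5-fold. Alternatives were 200 or 1000 genes per nucleus, doublets kept, stricter gates, nuclei thinned to 1000 UMIs, TMM (edgeR 4.0.16 in R 4.3.3, used for scaling only) or median-of-ratios scaling, the same subtype weights in both libraries and other UMI minimums. Those weights were the UMIs of each subtype summed over KO and WT.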

Additional observations from a re-analysis of the deposited data

Results flagged for a closer look

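Rims1, the active zone scaffold that tethers priming factors, was the 1 gene of the 35 whose KO over WT ratio lay on opposite sides of 0 in the 2 neuron classes with both counting intervals clear of 0. The log2 ratio was -0.04 in excitatory neurons (-0.07 to -0.01) and 0.03 in inhibitory neurons (0.01 to 0.05), a difference of -0.076. With 1 library per genotype this difference was not tested. The sign changed under 2 alternatives in excitatory and 3 in inhibitory neurons.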

How the results depend on the processing

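The median ratio of neurons over glia ran from 1.36 to 1.53 in KO and from 1.19 to 1.33 in WT over the alternatives run. The median of KO over WT in excitatory neurons was -0.11 with median-of-ratios and -0.08 with TMM scaling, and 0.03 when thinned. In inhibitory neurons it was -0.056 with median-of-ratios and -0.04 with TMM scaling, -0.01 when thinned and -0.003 with the same subtype weights in both libraries, so that neither median has a settled sign. Thinned to 1000 UMIs, 2 genes passed 1.5-fold in inhibitory neurons, Syt5 at 0.59 and Vamp1 at 0.65, where none did without thinning. In excitatory neurons 1 gene passed when thinned, but it was Rab3a at 0.70, while Syt6 stood at -0.36 from 34 UMIs. The number of genes with the same top subtype ran from 14 to 22. The scalings shifted all ratios by -0.07 and -0.04 in excitatory and by -0.07 and -0.06 in inhibitory neurons. Of 70 single ratios in the 2 classes, 23 left their counting interval with TMM and 4 changed sign, 30 and 6 with median-of-ratios scaling, 40 and 8 when thinned, 8 and 3 with the same subtype weights in both libraries, 6 and 5 with stricter gates, and 0 and 2 with doublets kept. Those that changed sign at least once were of Cplx1, Rims1 and Stx1a in both classes, Dnm1 and Snap25 in inhibitory neurons, and Stxbp5l, Sv2c, Syn3, Syt17, Syt2, Unc13b and Unc13c in excitatory neurons. Called subtype ratios changed sign in 5 cases: thinned, Sv2c in Rspo2 excitatory nuclei stood at 0.10, Unc13c in Sim1 excitatory nuclei at -0.45, Syp in Drd2 Alk GABA nuclei at -1.07 and Syt6 in Nxph1 Sox6 GABA nuclei at 0.011, and with stricter gates Syt2 in Slc17a6 excitatory nuclei at 1.76. Thinned values rest on few UMIs, and beyond that the cause was not tested. No paired analysis was possible because each genotype has 1 library. Depth limits low genes: Syt2, Syt6 and Doc2b in excitatory neurons rest on 116 to 254 UMIs per library.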

Other observations

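Gene length went with the ratio of neurons over glia among the 35 genes, a relation looked at after the values had been seen. The genes range from 3.90 kb (Vamp2) to 856 kb (Erc2) in the GENCODE annotation of mm10. Spearman's rho of length against the log2 ratio was 0.773 in KO and 0.711 in WT over 35 genes, which share 2 libraries, and 0.148 and 0.125 over the 13862 and 14333 genes with at least 100 UMIs and a length. The genes at or above the neuron level in glia in both libraries are short, with 3.90 kb for Vamp2, 3.999 kb for Rab3a, 12.6 kb for Cplx2, 14.8 kb for Syp and 30.4 kb for Vamp1. Against the log2 ratio of KO over WT, rho was -0.02 in excitatory and -0.15 in inhibitory neurons over the 35 genes, and -0.25 and -0.15 over all genes.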
